A study of Mus musculus with 35 samples.

Results

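The transcripts described here are those of the mouse mitochondrial genome. All genes whose symbol starts with mt- were taken, which gave 18 of the 27012 genes in the deposited table. They were 13 mRNAs, 2 rRNAs and 3 tRNAs. The other 19 of the 22 mitochondrial tRNA genes in the annotation were not analysed here. RNA came from the apex of mouse hearts taken 3 days after transaortic constriction (TAC, a suture that narrows the aorta and loads the left ventricle with pressure) or a sham operation, performed at 6 weeks of age. All mice had the mixed strain background C57Bl/6/FVB. WT mice carried IRS2-flox and no Cre. IRS1KO mice were alphaMHC-Cre X IRS1-flox and IRS2KO mice were alphaMHC-Cre X IRS2-flox. The alphaMHC promoter drives Cre in cardiomyocytes, so other heart cells keep the targeted gene. No group carried Cre alone or IRS1-flox without Cre, so each knockout differs from WT by Cre as well, and IRS1KO also by its floxed gene. Each group had 6 libraries, except WT TAC with 5. Nothing in the labels ties a library to a mouse of its own, so every p-value below speaks for the spread among libraries only.

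The mitochondrial genome is a small circle that encodes subunits of respiratory complexes I, III and IV and of the ATP synthase (complex V), with the rRNAs and tRNAs that translate them inside the organelle. Both strands are transcribed as long precursors, and the tRNAs that lie between most other genes are cut out to release mRNAs and rRNAs. The remaining subunits of these complexes, and the proteins that copy, transcribe and process mitochondrial RNA, come from nuclear genes. Heart muscle is rich in mitochondria, and its mitochondrial transcripts are abundant.

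Mitochondrial genes partly share sequence with each other and with the nucleus, and this limits what a count of each can mean. mt-Atp8 and mt-Atp6, the genes of 2 ATP synthase subunits, overlap by 43 bases on the heavy strand's transcript. The 2 runs below are from GRCm38, plus strand, chrM:7907-7969 and chrM:7927-7989, and capitals mark the overlap.
mt-Atp8 end: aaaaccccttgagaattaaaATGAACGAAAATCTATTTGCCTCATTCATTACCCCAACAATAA
mt-Atp6 start: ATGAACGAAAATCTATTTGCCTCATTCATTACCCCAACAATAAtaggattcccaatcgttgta
mt-Nd4l and mt-Nd4, genes of complex I, overlap by 7 bases, shown in capitals at chrM:10147-10173 and chrM:10167-10193, plus strand.
mt-Nd4l end: caaaatctcaacctactacaATGCTAA
mt-Nd4 start: ATGCTAAaaattattcttccctcacta
mt-Nd5 and mt-Nd6 overlap by 14 bases on opposite strands. The library kit marks strand, but the sources used here do not say whether counting used it. Without strand, reads from mt-Nd6, mt-Tn, mt-Tc and mt-Tp, which lie on the light strand, cannot be told apart from reads of the opposite strand.

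A stretch of mouse chromosome 1 copies part of the mitochondrial genome. In the GENCODE vM21 annotation of GRCm38, 7 neighbouring pseudogenes at chr1:24611535-24616197, minus strand, followed the order of the mitochondrial genes between positions 6390 and 11042. Gm28661, Gm10925, Gm28437 and Gm10222 matched mt-Co2, mt-Atp6, mt-Co3 and mt-Nd4l at 100% over the bases aligned. Gm28439 matched the first 876 bases of mt-Nd4 at 100%. Gm29216 matched the last 483 bases of mt-Co1 with 1 mismatch. Gm28438 matched mt-Nd3 over 345 bases with 1 substitution, T3C, counted from 1 at the 5′ end of mt-Nd3. The starts of both genes are shown because the copy is counted under its own name, and capitals mark the substituted base (chrM:9459-9491, plus strand, and chr1:24613087-24613119, minus strand).
mt-Nd3: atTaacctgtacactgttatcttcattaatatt
Gm28438: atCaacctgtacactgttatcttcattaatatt
The stretch held 6 of the 13 mRNAs whole (mt-Co2, mt-Atp8, mt-Atp6, mt-Co3, mt-Nd3 and mt-Nd4l), 2 in part (mt-Co1 and mt-Nd4) and 5 not at all, and neither rRNA lay in it. The sources used here do not say how a read that fits both places was counted. The levels of these 6 mRNAs and of the 7 pseudogenes are therefore uncertain. For mt-Co1 and mt-Nd4 the same limit holds over 31.3% and 63.6% of their length.

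The level per length split along that stretch. In WT sham hearts the 6 mRNAs within it held between 885 and 7054 normalized counts per kilobase. Those partly in it, mt-Nd4 and mt-Co1, held 239666 and 1065040, and the 5 mRNAs outside it between 255279 and 614913. In each of the 6 groups the lowest mRNA outside stood 33.0 to 37.3 times above the highest within. The 6 mRNAs together made up only 0.269% to 0.342% of mitochondrial reads in any library. The 7 pseudogenes held 1.92 to 4.64 times as many reads as these 6 mRNAs. The highest value was of WT sham replicate 6 alone, and the next was 3.05. The sets are not matched: Gm29216 and Gm28439 copy parts of mt-Co1 and mt-Nd4, and none of the 7 was matched to mt-Atp8.

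**Figure D1:**
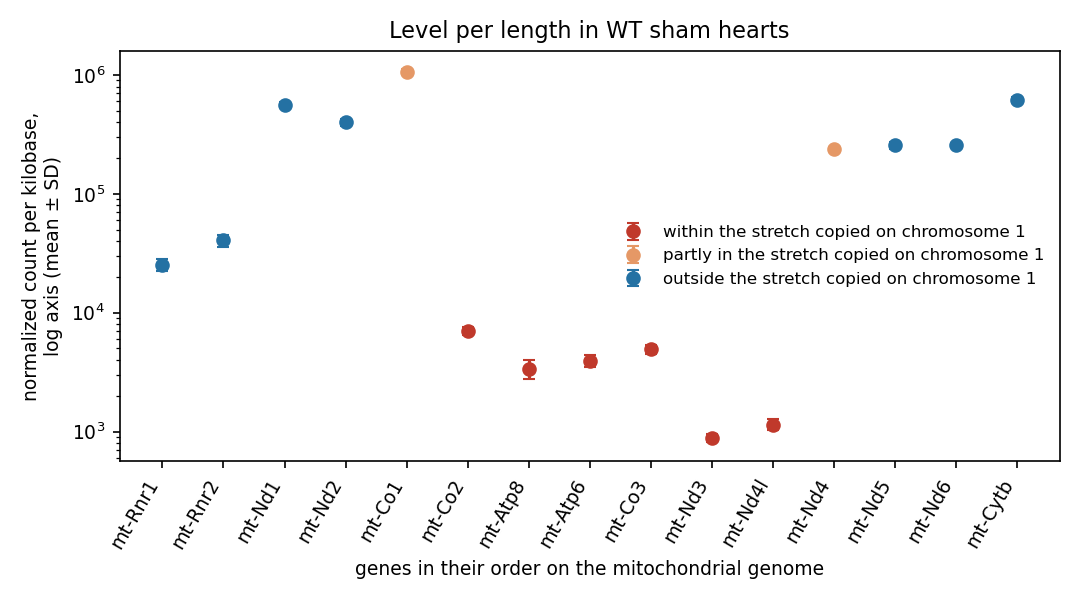
Level per length of the 13 mRNAs and 2 rRNAs in WT sham hearts, as mean ± SD of normalized count per kilobase over 6 libraries, on a log axis, in genome order. The 6 genes within the stretch copied on chromosome 1 lie between 885 and 7054, and the lowest other gene is mt-Rnr1 at 25320.

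Among the genes with no base in the stretch, mt-Cytb stood highest in WT sham hearts at 614913 ± 35781 normalized counts per kilobase (SD, n = 6). mt-Nd1 followed at 559869 ± 29127 and mt-Nd2 at 400224 ± 24438. mt-Nd6 (255779 ± 10072) and mt-Nd5 (255279 ± 18010) did not differ beyond their spread. mt-Rnr2 (40516 ± 4598) and mt-Rnr1 (25320 ± 2780) were lower than all of these. The kit selects polyadenylated RNA, so all levels, those of mt-Nd6, rRNA and tRNA included, are of the captured part. By reads, mt-Co1, the catalytic core of complex IV, held 38.0% of all mitochondrial reads in WT sham, mt-Cytb 16.2% and mt-Nd1 12.4%.

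In sham hearts nearly 3 in 10 reads came from the mitochondrial genome, and after TAC about 2 in 10. In WT sham the share was 29.9% ± 0.513 (SD, n = 6; 29.2% to 30.6%), and in WT TAC 23.4% ± 2.18 (n = 5; 21.8% to 27.0%). In IRS1KO it was 28.6% ± 1.23 in sham (26.4% to 29.8%) and 19.5% ± 3.22 after TAC (16.5% to 23.6%). In IRS2KO it was 30.4% ± 0.749 in sham (29.6% to 31.3%) and 21.1% ± 4.91 after TAC (15.6% to 28.0%). Sham and TAC libraries did not overlap in any genotype. IRS2KO TAC replicates 1 and 4, at 26.1% and 28.0%, stood above the other 4, which reached at most 20.9%. The share is given as a description, without a test.

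**Figure D2:**
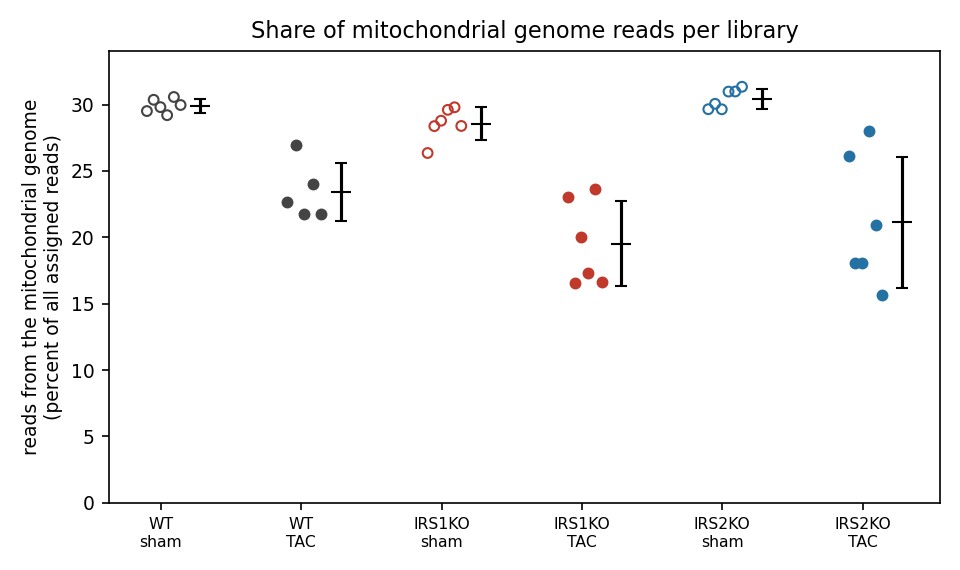
Share of assigned reads that came from the mitochondrial genome, in percent, for each of the 35 libraries (open circles sham, filled circles TAC), with mean ± SD beside each group. Every sham library lies above every TAC library of its genotype, and the IRS2KO TAC libraries spread from 15.6% to 28.0%.

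Depth and identity of the libraries were as follows. Each held 11707111 to 14609467 assigned reads. Irs1 stood at 0 to 80.3 normalized counts in the IRS1KO libraries against 135 to 343 in all others. Irs2 stood at 78.6 to 196 in the IRS2KO libraries, which overlapped the WT range of 93.0 to 564. Cardiomyocyte markers were abundant in every library. Placed between the mean sham and the mean TAC profile of their genotype (0 and 1) over the tested genes other than the mitochondrial ones and their copies, IRS2KO TAC replicate 4, WT TAC replicate 2 and IRS1KO TAC replicate 5 lay nearest to sham, at 0.51, 0.55 and 0.69. These same libraries had the highest mitochondrial share of their groups.

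TAC lowered nearly every mitochondrial transcript in every genotype. Of the 13 mRNAs and 2 rRNAs, 14 fell in WT, 14 in IRS1KO and 15 in IRS2KO, and none rose (limma on log2(value + 1), Benjamini-Hochberg adjusted p under 0.05 over 13695 genes). Over all genes tested, 26.6%, 31.7% and 31.1% were called lower and 28.3%, 32.4% and 31.3% higher. The exceptions were mt-Atp8 in WT, at a log2 fold change of -0.47 (adjusted p = 0.0713, limma), and mt-Nd4l in IRS1KO, at -0.45 (adjusted p = 0.0624). Both lie whole in the stretch copied on chromosome 1, so their levels are uncertain. Of the 6 mRNAs within it 5, 5 and 6 fell in WT, IRS1KO and IRS2KO. Of the 7 outside or partly in it 7 fell in each genotype. mt-Atp8 passed in WT with only the groups compared in the fit (adjusted p = 0.0041, limma). With the same total of reads per library it did not (-0.22, limma adjusted p = 0.341). The same total outside the mitochondrial genome gave -0.34 (limma adjusted p = 0.164). Library weights (limma adjusted p = 0.0539), edgeR (adjusted p = 0.0739) and DESeq2 (adjusted p = 0.0626) did not call mt-Atp8 either. With 1 WT library left out it never passed (limma adjusted p 0.0653 to 0.163). mt-Nd4l passed in IRS1KO with library weights (-0.71, limma adjusted p = 1.02e-04). TAC and sham libraries were wholly separate for 14 of the 15 transcripts in WT, 12 in IRS1KO and 9 in IRS2KO. The share of all genes tested that separate in this way was not counted, so these counts have no background to compare with. Ratios of sham to TAC means over the 13 mRNAs ran from 1.40 to 1.61 in WT (median 1.49), from 1.35 to 2.08 in IRS1KO (median 1.80) and from 1.62 to 1.95 in IRS2KO (median 1.74). The median log2 fold change of the 15 was -0.62, -0.88 and -0.90, against -0.01 for all genes in each comparison. With the same total of reads per library, which moves the median of all genes to 0.24, 0.30 and 0.33 and the higher share of all calls from 51.6%, 50.6% and 50.2% to 79.7%, 76.8% and 79.7%, 13, 14 and 14 of the 15 fell. Leaving out the 3 TAC libraries nearest to sham, a choice made after seeing the data, gave counts of 15, 15 and 15. Those libraries had the highest mitochondrial share of their groups, so this choice favours larger falls and is no check on them.

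Markers of cell types moved in the same comparisons. There 26.6%, 31.7% and 31.1% of all genes tested were called lower and 28.3%, 32.4% and 31.3% higher in WT, IRS1KO and IRS2KO. The summed level of 12 cardiomyocyte markers lay between 1146230 and 1308770 normalized counts in the sham libraries and between 532395 and 1151790 in the TAC libraries. Of these markers 10, 8 and 9 fell in WT, IRS1KO and IRS2KO, and 1 rose, in IRS2KO. All 12 macrophage markers rose in each genotype, with the sum going from at most 4715 in sham to 6868 to 24164 after TAC. Of 10 fibroblast markers 7, 6 and 6 rose, and 1, 2 and 2 fell. Of 8 endothelial markers 6, 8 and 7 fell. Of 6 neutrophil markers 2 were tested, and 2, 1 and 1 rose, with sums of at most 39.9 in sham and 30.5 to 467 after TAC, and Mpo was at 0 in every sham library. Of 5 erythroid markers tested 5, 4 and 5 fell, with median log2 fold changes of -0.92, -0.88 and -1.39 and sums of 3322 to 8314 in sham and 1107 to 4296 after TAC. No lymphocyte marker passed the filter, at sums of at most 26.3. The part of these cells in the mitochondrial results was not tested, and in these bulk samples fewer cells of a type and less RNA per cell cannot be told apart.

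**Figure D3:**
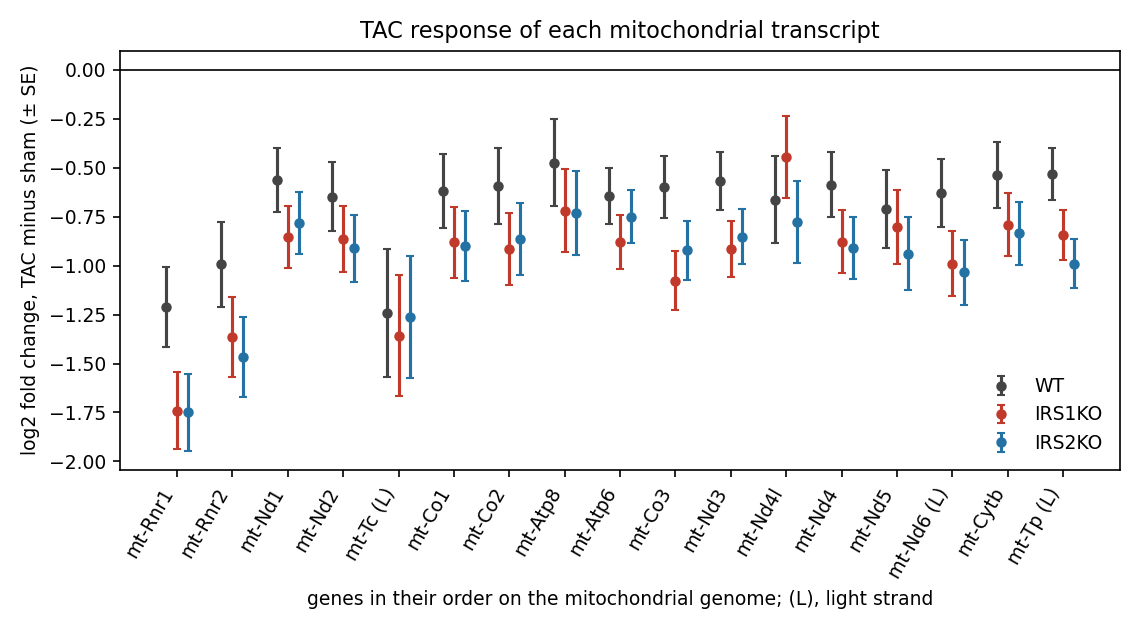
Log2 fold change of TAC against sham (± SE, limma) for the 17 mitochondrial transcripts above the filter, in genome order, for WT (n = 5 and 6), IRS1KO and IRS2KO (n = 6 and 6). All values lie below 0, and mt-Rnr1 lies lowest in IRS1KO and IRS2KO, at -1.74 and -1.75.

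The rRNAs, which form the cores of the small (mt-Rnr1) and large (mt-Rnr2) mitochondrial ribosomal subunits, had larger falls than the mRNAs. mt-Rnr1 stood at 21826, 23466 and 28722 normalized counts in WT sham (lowest, median, highest). The 5 WT TAC libraries held 11592, 11992, 7531, 15300 and 7552. In IRS1KO it went from 24595, 29027 and 35756 in sham to 6306, 8851 and 12090 after TAC, and in IRS2KO from 22413, 24552 and 27029 to 5106, 6439 and 12258. No TAC library reached the lowest sham library of its genotype. The log2 fold changes of mt-Rnr1 were -1.21 ± 0.20 (SE), -1.74 ± 0.20 and -1.75 ± 0.20 in WT, IRS1KO and IRS2KO, or 2.24-fold, 3.25-fold and 3.15-fold lower means (limma adjusted p at most 1.40e-05).

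mt-Rnr2 followed the same order. Its WT sham libraries held 55388, 64106 and 73872 normalized counts (lowest, median, highest) and its 5 WT TAC libraries 30992, 34952, 26422, 44179 and 26557. IRS1KO stood at 60445, 73714 and 78983 in sham and 18175, 27004 and 45132 after TAC. IRS2KO stood at 58382, 61617 and 71274 in sham and 14100 (lowest), 20047 and 39147 after TAC. Groups did not overlap in any genotype, and log2 fold changes were -0.99 ± 0.22, -1.37 ± 0.21 and -1.47 ± 0.21 (SE, limma adjusted p at most 3.00e-04).

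Complex I takes electrons from NADH, and 7 of its core subunits are mitochondrial. In WT 7 of the 7 mRNAs fell, in IRS1KO 6 and in IRS2KO 7, with median log2 fold changes of -0.63, -0.86 and -0.91. mt-Nd1 stood at 508914, 522606 and 574572 normalized counts in WT sham (lowest, median, highest) and at 339842, 454089, 336078, 370305 and 324959 in WT TAC. In IRS1KO TAC mt-Nd1 lay between 214271 and 357840, below every IRS1KO sham library (452231 to 542338). In IRS2KO TAC it lay between 201066 and 473907, and its sham libraries lay between 488959 and 563092.

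mt-Nd5 and mt-Nd4l showed a low library among the IRS1KO sham hearts. mt-Nd5 stood at 245015 normalized counts in IRS1KO sham replicate 1 and between 432598 and 469798 in the other 5. mt-Nd4l stood at 144 in that library and between 277 and 324 in the others. In the same library mt-Rnr1 was the highest of the group at 35756, and the mitochondrial share was the lowest at 26.4%. Without it, mt-Nd4l passed after TAC in IRS1KO (log2 fold change -0.62, limma adjusted p = 0.00727), as it did without IRS1KO TAC replicate 1 (adjusted p = 0.0395) or 5 (adjusted p = 0.0169). Without any other single library mt-Nd4l did not pass (limma adjusted p 0.0798 to 0.202). With the same total of reads per library its log2 fold change was -0.14 (limma adjusted p = 0.496). With the same total outside the mitochondrial genome it was -0.31 (limma adjusted p = 0.167).

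mt-Nd6 is the only mRNA on the light strand, and its counts may hold reads of the opposite strand. It stood at 126909, 132113 and 141818 normalized counts in WT sham (lowest, median, highest) and at 72306, 111377, 73878, 99090 and 78568 in WT TAC. In IRS1KO it went from 112517 to 143027 in sham to 49628 to 91427 after TAC, and in IRS2KO from 134762 to 160679 to 45291 to 114740. The groups did not overlap in any genotype. Log2 fold changes were -0.63 ± 0.17, -0.99 ± 0.17 and -1.03 ± 0.17 (SE, limma adjusted p at most 0.00306).

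mt-Cytb, the only mitochondrial subunit of complex III, had log2 fold changes of -0.54 ± 0.17, -0.79 ± 0.16 and -0.83 ± 0.16 (SE). It stood at 672828, 682683 and 773801 normalized counts in WT sham (lowest, median, highest), and 470734, 611811, 409293, 517464 and 439021 in WT TAC. IRS1KO TAC libraries held 291684 to 486960 against 598681 to 688796 in sham, and IRS2KO TAC libraries 270281 to 626522 against 661355 to 781843. All TAC libraries lay below the sham libraries of their genotype.

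Complex IV passes electrons to oxygen, and its 3 mitochondrial mRNAs (mt-Co1, mt-Co2 and mt-Co3) fell in all genotypes, with median log2 fold changes of -0.60, -0.92 and -0.90. mt-Co1 stood at 1546610 to 1767660 normalized counts in WT sham and at 1085500, 1407300, 854622, 1114130 and 973788 in WT TAC. In IRS1KO it stood at 1386520 to 1571710 in sham and 619612 to 1055980 after TAC, and in IRS2KO at 1569320 to 1736700 and 567481 to 1467970. The sham and TAC libraries were apart in all 3 genotypes. The mt-Atp6 and mt-Atp8 mRNAs of the ATP synthase both fell in IRS1KO and IRS2KO. mt-Atp6 also fell in WT, at -0.65 ± 0.14 (SE), from 2411 to 3289 normalized counts in sham to 1535 to 1944 after TAC.

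The 3 tRNAs in the table all lie on the light strand, so the limit on strand given above holds for their counts. Each carries the anticodon of 1 amino acid. Those for proline (mt-Tp, chrM:15356-15422, minus strand) and cysteine (mt-Tc, chrM:5192-5257, minus strand) are printed because they were the tRNAs with enough reads to test, with the anticodon in capitals.
mt-Tp: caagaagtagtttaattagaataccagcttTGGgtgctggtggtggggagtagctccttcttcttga
mt-Tc: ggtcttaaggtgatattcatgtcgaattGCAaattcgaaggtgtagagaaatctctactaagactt
mt-Tp stood at 2616 to 3198 normalized counts in WT sham and 1795, 2374, 1803, 2468 and 1680 in WT TAC. Its log2 fold changes were -0.53 ± 0.13, -0.84 ± 0.13 and -0.99 ± 0.13 in WT, IRS1KO and IRS2KO (SE), with all TAC libraries below all sham libraries. mt-Tc was low, at 24.3 to 58.2 in WT sham and 9.66 to 29.6 in WT TAC, and it fell in the 3 genotypes with overlapping groups. mt-Tn, for asparagine, had 9 reads in all and none in 27 of the 35 libraries, below the filter, so 17 of the 18 genes were tested.

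Ratios between transcripts of one library do not depend on the scaling between libraries. Of 9 ratios in 9 comparisons of 2 groups, 8 of the 81 passed (exact permutation test, two-sided, Benjamini-Hochberg adjusted p over the 81). The smallest p that 6 against 6 libraries allow is 0.00216, and 6 against 5 allow 0.00433. No ratio passed for TAC in WT. None of the 81 passed without the 3 TAC libraries nearest to sham, nor without any one of 21 libraries (each IRS1KO library, IRS2KO sham replicates 1, 2, 4, 5 and 6 and IRS2KO TAC replicates 2, 3, 4 and 5). Paired by replicate number none passed, but the smallest p allowed there is 0.0312. Adjusted over the 81, this leaves almost no room for a call, so the paired result is no further check. Replicate 1 was the lowest library of all 3 sham groups for 4 of the 9 ratios, and no other number was the lowest or highest of all 3 for any.

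After TAC the rRNAs were lower relative to the neighbouring mt-Nd1. The ratio of mt-Rnr2 to mt-Nd1 reads was 0.145 ± 0.0146 in IRS1KO sham (SD, n = 6) and 0.102 ± 0.0161 after TAC, a log2 difference of -0.51 (exact permutation p = 0.00433, adjusted p = 0.0438). In IRS2KO it was 0.120 ± 0.00690 in sham and 0.0750 ± 0.0102 after TAC, a difference of -0.69 with no overlap (exact permutation p = 0.00216, adjusted p = 0.0438). In WT it was 0.120 ± 0.0115 and 0.0896 ± 0.0175, a difference of -0.43 that did not pass (exact permutation p = 0.0216, adjusted p = 0.146). The 5 WT TAC libraries held rRNA at 1.28% to 2.00% of mitochondrial reads, against 1.79% to 2.25% in WT sham.

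The balance between both rRNAs also moved. mt-Rnr2 reads were 2.47 ± 0.334 times those of mt-Rnr1 in IRS1KO sham (SD, n = 6) and 3.19 ± 0.402 times after TAC, a log2 difference of 0.37 (exact permutation adjusted p = 0.0438). In IRS2KO the ratio was 2.57 ± 0.194 and 3.13 ± 0.265, a difference of 0.28 (exact permutation adjusted p = 0.0438). In WT it was 2.65 ± 0.0966 and 3.10 ± 0.388, a difference of 0.22 (exact permutation adjusted p = 0.0956). IRS1KO sham replicate 1, at 1.81, and IRS1KO TAC replicate 1, at 3.97, were the extremes.

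mt-Nd6, a gene of the light strand, had fewer reads relative to the heavy-strand mt-Cytb after TAC in the knockouts. Whether counting used strand is not known, so mt-Nd6 reads may come from the opposite strand. The ratio therefore cannot be read as a balance of the strands. The ratio was 0.197 ± 0.00965 in IRS1KO sham and 0.172 ± 0.0107 after TAC (SD, n = 6). In IRS2KO it was 0.203 ± 0.00706 and 0.177 ± 0.00828, with no overlap. Both log2 differences were -0.20 (exact permutation adjusted p = 0.0438). In WT it was 0.189 ± 0.0113 and 0.177 ± 0.0141, a difference of -0.09 (exact permutation adjusted p = 0.489). mt-Co1 relative to mt-Cytb was lower by a smaller amount in IRS1KO TAC, at 2.13 ± 0.0696 against 2.26 ± 0.0539 (log2 difference -0.09, exact permutation adjusted p = 0.0438). Whether these ratios responded differently between genotypes was not tested.

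**Figure D4:**
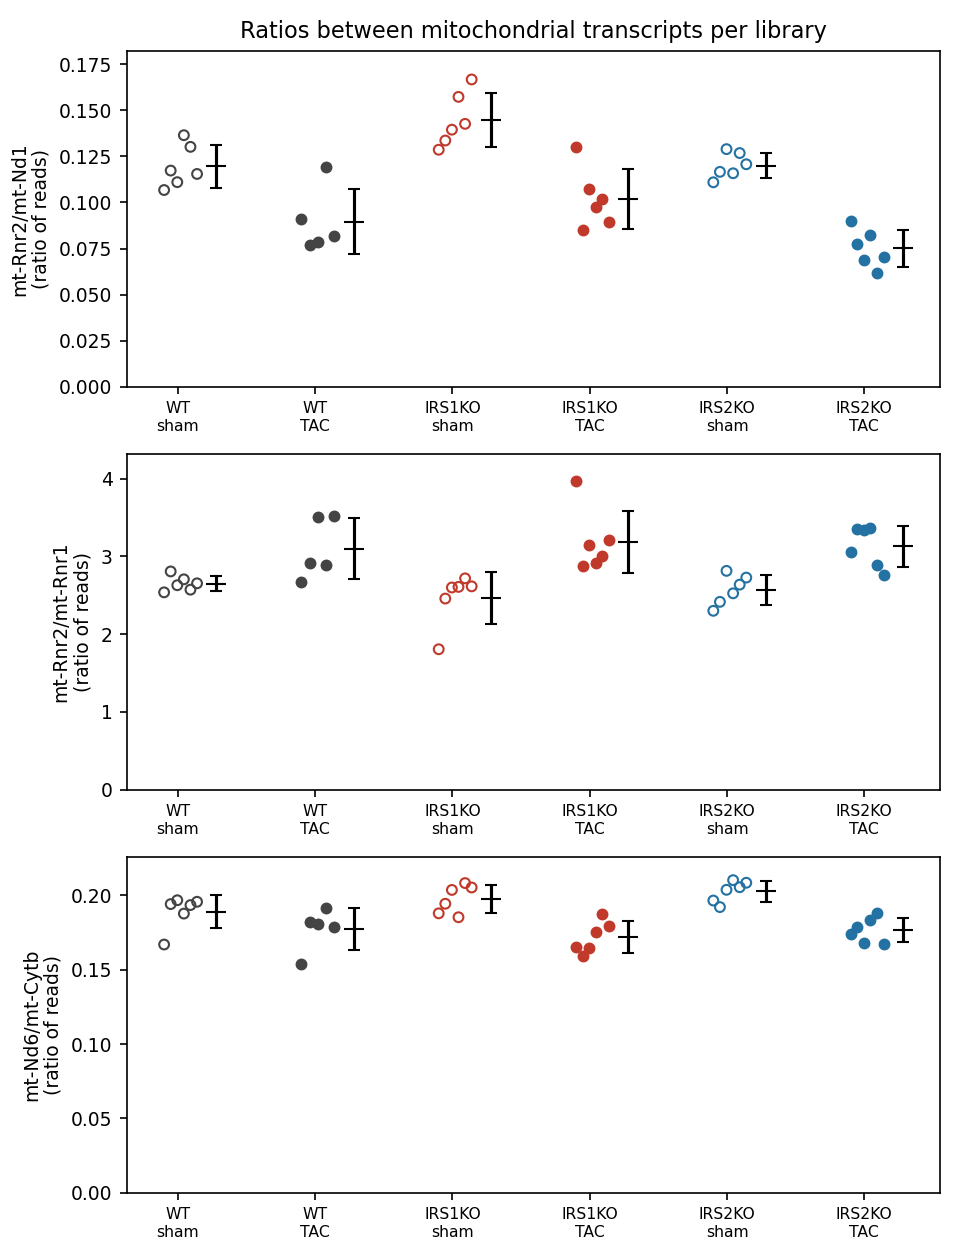
Ratios of reads between 3 pairs of transcripts in each library (open circles sham, filled circles TAC), with mean ± SD. The mean ratio of mt-Rnr2 to mt-Nd1 is highest in IRS1KO sham at 0.145 and lowest in IRS2KO TAC at 0.0750.

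Between genotypes in sham hearts, none of the 15 mRNAs and rRNAs passed for any pair. In IRS1KO against WT limma called 0 of 15 (0 at an unadjusted p under 0.05), with log2 differences from -0.34 to 0.27, where 4.65% of all genes were called. In IRS2KO against WT it called 0 of 15 (0 unadjusted), from -0.14 to 0.14, where 0% of all genes were called. In IRS1KO against IRS2KO it called 0 of 15 (0 unadjusted), where 8.3% of all genes were called. edgeR and DESeq2 also called 0 in each. Fitted with the groups compared alone, limma called 2 in IRS1KO against WT (mt-Rnr1 at 0.27, adjusted p = 0.0424, and mt-Co1 at -0.19, adjusted p = 0.0199). The same fit called 5 in IRS1KO against IRS2KO (mt-Rnr1 higher, and mt-Co1, mt-Nd4, mt-Nd6 and mt-Cytb lower).

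The rRNA share of mitochondrial reads in sham hearts was highest in IRS1KO. It was 2.58% ± 0.211 (SD, n = 6; 2.26% to 2.82%), against 2.04% ± 0.181 in WT (1.79% to 2.25%) and 1.97% ± 0.103 in IRS2KO (1.83% to 2.11%). The IRS1KO libraries overlapped neither of the others, but the lowest (2.258%) lay just above the highest WT library (2.250%). The share was not tested. The ratio of mt-Rnr2 to mt-Nd1 passed for IRS1KO against IRS2KO sham (log2 difference 0.27, exact permutation adjusted p = 0.0438). For IRS1KO against WT sham it did not (0.28, exact permutation adjusted p = 0.0877). Like the other ratio calls, the call against IRS2KO was lost without any one of 21 libraries.

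After TAC, IRS1KO differed from WT in mt-Co3 among the 15 (limma, 1 of 15 called, where 4.7% of all genes were called, and 2.68% lower). This gene lies whole in the stretch copied on chromosome 1, so its level is uncertain. Its copy Gm28437 had a log2 difference of -0.47 in the same comparison and was not called (limma adjusted p = 0.156). mt-Co3 stood at 2684, 3170, 1826, 2807 and 2394 normalized counts in WT TAC and at 1312 to 2136 in IRS1KO TAC, which overlap. The log2 difference was -0.56 ± 0.16 (SE, adjusted p = 0.0331). The call was lost without WT TAC replicate 1, 2 or 5 or without IRS1KO TAC replicate 2, 4 or 6 (adjusted p 0.0724 to 0.127) and with the groups compared alone (0.120), and without IRS1KO TAC replicate 5 the count was 3. With library weights 9 of the 15 were called lower. mt-Tp was lower too, at -0.45 ± 0.13 (SE, adjusted p = 0.0437), a call also lost without any of 6 libraries (WT TAC 2 and 5, IRS1KO TAC 2, 3, 4 and 6; adjusted p 0.0593 to 0.158). It was lost too with no filter (0.0543), with the groups compared alone (0.114) and without the 3 TAC libraries nearest to sham (0.0615).

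IRS2KO against WT after TAC gave 0 of 15 (limma, 3 at an unadjusted p under 0.05, 0 with edgeR and with DESeq2), where 0% of all genes were called. IRS1KO against IRS2KO after TAC gave 0 of 15 (limma, 0 unadjusted, 0 with edgeR and DESeq2), where 2.36% were called. By limma's interaction test, no difference in TAC response between genotypes passed for any of the 15. For IRS1KO minus WT 0 passed (1 unadjusted, for mt-Co3), with log2 differences from -0.53 to 0.22, where 0.11% of all genes were called. For IRS2KO minus WT 0 passed (0 unadjusted), from -0.54 to -0.10, where 0% were called. For IRS1KO minus IRS2KO 0 passed (0 unadjusted), where 0.409% were called, and edgeR and DESeq2 gave 0 for each response.

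Counts of the nuclear copies were taken beside those of the mitochondrial genes. Several copies match a mitochondrial gene at 100%, and how reads that fit both were counted is not known. The counts of the copies may therefore hold mitochondrial reads, and their falls cannot be credited to the nuclear copies. Of 14 pseudogenes in the table that matched a member at 90% or more over at least 200 bases, 12 passed the filter. After TAC 11 fell in WT, 11 in IRS1KO and 12 in IRS2KO, where 26.6%, 31.7% and 31.1% of all genes tested were called lower. The median log2 fold changes of the copies were -0.71, -0.87 and -0.93. The exception in WT and IRS1KO was Gm28661, the mt-Co2 copy (adjusted p = 0.0563 and 0.194, limma).

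Counts of Gm28438, the mt-Nd3 copy with the substitution shown above, differed between genotypes. Only 1 of the 345 aligned bases sets this copy apart from mt-Nd3. Its counts may therefore hold reads of the mitochondrial genome and cannot be credited to chromosome 1 alone. In WT sham it stood at 1153, 1470 and 1597 normalized counts (lowest, median, highest), in IRS2KO sham at 1190 to 1898 and in IRS1KO sham at 324 to 506. After TAC it stood at 843, 911, 1127, 1156 and 1071 in WT, 412 to 1096 in IRS2KO and 170 to 323 in IRS1KO. Every IRS1KO library lay below every library of the other genotypes after the same operation. Its mean in WT was 3.50-fold higher in sham and 4.68-fold higher after TAC. Log2 differences of IRS1KO from WT were -1.81 ± 0.18 and -2.24 ± 0.19 (SE, limma adjusted p = 6.82e-09 and 1.96e-10). Of the 12 copies it was the only one called between genotypes by limma. Its fall in WT after TAC (-0.45, adjusted p = 0.0448) was lost without WT sham replicate 2, 3, 5 or 6 or WT TAC replicate 1, 2 or 6, with no filter and with quantile normalization.

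mt-Nd3 itself passed in none of these genotype comparisons. It stood at 261 to 332 normalized counts in WT sham, 294 to 394 in IRS1KO sham and 295 to 386 in IRS2KO sham. The log2 difference of IRS1KO from WT was 0.19 ± 0.14 in sham (SE, limma adjusted p = 0.573) and -0.16 ± 0.15 after TAC (adjusted p = 0.560). Irs1, the gene targeted in IRS1KO, lies on the same chromosome as the copy (chr1:82233101-82291416, minus strand). Whether its place or the mixed strain background bears on the counts of the copy, or on which reads are counted there, was not tested.

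**Figure D5:**
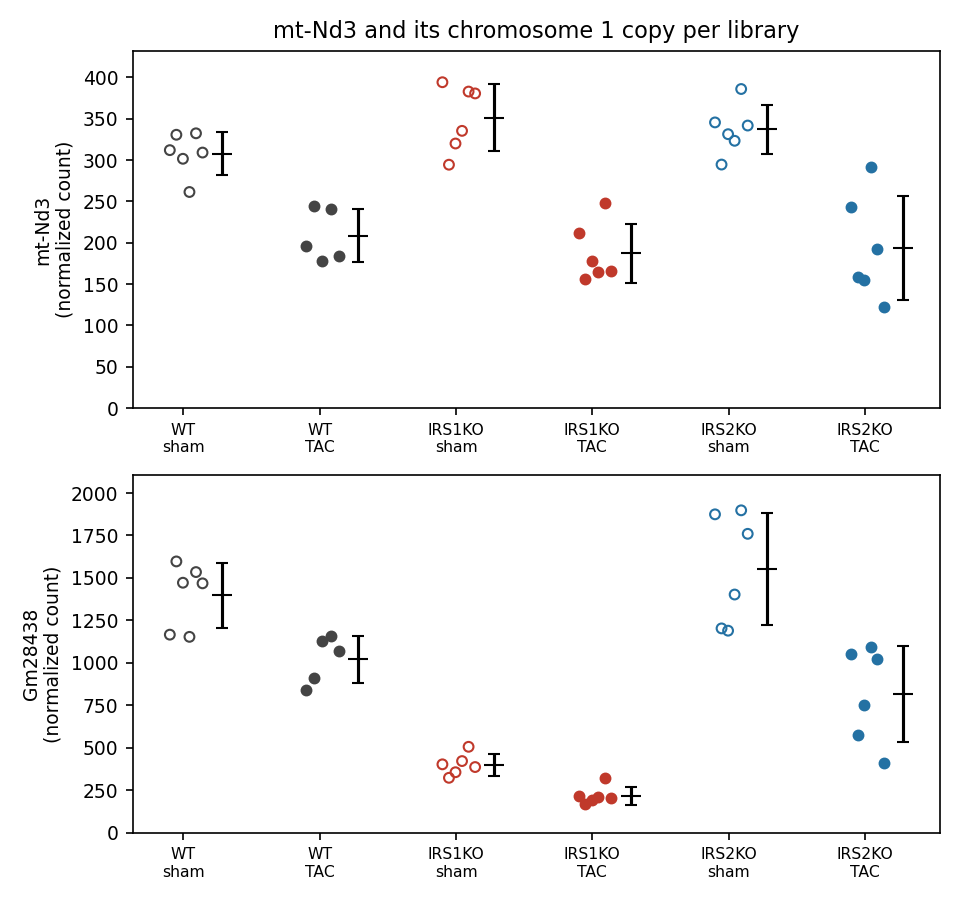
Normalized counts of mt-Nd3 and of its chromosome 1 copy Gm28438 in each library (open circles sham, filled circles TAC), with mean ± SD. Gm28438 lies between 170 and 506 in the IRS1KO libraries and between 412 and 1898 in the others, and mt-Nd3 overlaps between genotypes.

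The nuclear subunits of the same complexes fell with the mitochondrial ones. Of 36 nuclear complex I genes, 35, 36 and 36 fell in WT, IRS1KO and IRS2KO, with median log2 fold changes of -0.58, -0.93 and -0.83 beside -0.63, -0.86 and -0.91 for the 7 mitochondrial mRNAs. Of 9 for complex III, 9 fell in each (medians -0.50, -0.86 and -0.79). Of 12 for complex IV, 11, 12 and 12 fell (medians -0.54, -0.84 and -0.82). Of 16 for complex V, 14, 15 and 16 fell (medians -0.55, -0.88 and -0.82). No gene of these lists rose in any genotype after TAC. Of all genes tested 26.6%, 31.7% and 31.1% were called lower and 28.3%, 32.4% and 31.3% higher in WT, IRS1KO and IRS2KO.

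Of 39 nuclear genes for mitochondrial RNA and DNA upkeep, 37 were tested. After TAC 19 fell and 2 rose in WT, 25 fell and 2 rose in IRS1KO, and 26 fell and 2 rose in IRS2KO, with medians of -0.31, -0.43 and -0.42. Of all genes tested 26.6%, 31.7% and 31.1% were called lower and 28.3%, 32.4% and 31.3% higher. Polrmt, the mitochondrial RNA polymerase, fell (-0.41, -0.60 and -0.61), as did Tfam, which packages the genome and starts transcription (-0.31, -0.60 and -0.36). Lrpprc, which stabilises mitochondrial mRNAs, fell (-0.67, -0.80 and -0.80). Its partner Slirp fell in IRS2KO only by limma's call (-0.27, adjusted p = 0.0377), with -0.01 in WT and -0.21 in IRS1KO, and the difference between genotypes was not called for it.

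The largest falls of that list were in Twnk, the helicase of mitochondrial DNA replication (-0.76, -0.89 and -0.83), Hsd17b10, a subunit of the enzyme that cuts tRNA 5′ ends (-0.73, -0.94 and -0.87), Fastk (-0.71, -0.95 and -0.80), a mitochondrial RNA-binding protein, and Mterf2 (-0.69, -0.95 and -0.88). In IRS2KO Ptcd1 was at -0.90. Both genes that rose break down or trim RNA in mitochondria. Rexo2, which degrades short RNA, rose by 0.57, 0.68 and 0.64, and Pde12, which removes adenosines from RNA ends, by 0.44, 0.36 and 0.39. Elac2, which cuts tRNA 3′ ends (0.04, 0.06 and -0.04), and Mtpap, the mitochondrial poly(A) polymerase (0.17, -0.01 and -0.02), did not pass.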

How the data were processed

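Libraries were made with the TruSeq Stranded mRNA kit from total RNA, per the labels' protocols. Tools listed in the submitters' processing notes are HISAT2 2.0.6, HTSeq 0.7.1 and DESeq2, with build GRCm38; the notes used here name no annotation version. The values, deposited by the authors as normalized counts, are a linear signal, counts divided by a size factor per library. All values (100% in each library, tolerance 0.001) were whole multiples of one step, which gave back the reads.

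Symbols came from GENCODE vM21 for 26886 of 27012 genes. limma 3.58.1 (R 4.3.3, trend and robust) was fitted to log2(value + 1) over 6 group means for 13695 genes with a mean of at least 10. Adjusted p-values are Benjamini-Hochberg over all these genes in each contrast, called under 0.05. Fold changes of low genes are understated on that scale. On the recovered reads edgeR 4.0.16 called 7460, 8871 and 8534 genes for TAC in WT, IRS1KO and IRS2KO, and DESeq2 1.42.0 was also run. Ratios were of reads, tested by exact permutation. Nuclear copies were pseudogenes matched by BLAST 2.17.0 at 90% identity or more over at least 200 bases.

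The members, lists, ratios and tests were chosen with earlier results of these data known. All mt- genes could be named, with 6 fixed genes of the upkeep list and the 4 largest rises and falls past the threshold in each TAC comparison. No replicate pair of one group (85 pairs) agreed within sampling noise. The fit was tested on simulated data. Alternatives covered pseudocount, filter, scaling, groups in the fit, weights, block, tool and each library left out.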

Additional observations from a re-analysis of the deposited data

Results flagged for a closer look

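In 162 groups of values (member levels and ratios in each group of libraries), 14 had a highest or lowest library far from the rest, where chance flags about 1 in 20 groups. IRS1KO sham replicate 1 accounted for 5 of them. In that library mt-Nd2 was at 307334 normalized counts (next 380027), mt-Nd5 at 245015 (next 432598) and mt-Nd4l at 144 (next 277). Its ratio of mt-Nd5 to mt-Nd1 was 0.488 (next 0.798), and of mt-Rnr2 to mt-Rnr1 1.81 (next 2.46). Among the other IRS1KO libraries, TAC replicate 1 had an mt-Rnr2 to mt-Rnr1 ratio of 3.97 (next 3.20). TAC replicate 2 had an mt-Co1 to mt-Cytb ratio of 1.99 (next 2.13).

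In WT sham, replicate 5 held mt-Atp8 at 930 normalized counts (next 672) and replicate 1 had an mt-Nd6 to mt-Cytb ratio of 0.167 (next 0.188). In WT TAC, replicate 2 held mt-Nd5 at 400037 (next 282785), replicate 5 held mt-Tc at 29.6 (next 14.4) and replicate 3 had an mt-Co3 to mt-Atp6 ratio of 1.19 (next 1.52). In IRS2KO, sham replicate 1 held mt-Co2 at 6558 (next 5153) and TAC replicate 3 had an mt-Co3 to mt-Atp6 ratio of 1.12 (next 1.41).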

How the results depend on the processing

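The falls after TAC kept their direction for all 15 mRNAs and rRNAs under every alternative except quantile normalization, which sets the most abundant genes of all libraries to equal values by construction. There 7, 8 and 9 of the 15 passed in WT, IRS1KO and IRS2KO, and the log2 fold change turned to 0.0900 for mt-Nd4 in WT, to 0.0489 (mt-Nd2), 0.0375 (mt-Nd4) and 0.0888 (mt-Nd5) in IRS1KO and to 0.112 for mt-Nd1 in IRS2KO, none of them called. The difference in mitochondrial share ranged from -7.36 to -6.05 percentage points in WT, -9.84 to -8.42 in IRS1KO and -10.7 to -8.22 in IRS2KO over the alternatives. With the same total of reads outside the mitochondrial genome, 67.7%, 63.7% and 66.1% of all calls were higher. With only the groups compared in the fit, 2 passed in IRS1KO against WT sham, 5 in IRS1KO against IRS2KO sham and 0 in IRS1KO against WT after TAC. With library weights 9 passed in IRS1KO against WT after TAC, and with 1 library left out 0 to 3. The cause was not tested. Of the ratios, 0 passed without the 3 TAC libraries nearest to sham (17 at an unadjusted p under 0.05), an alternative chosen after seeing the data, and 0 to 8 with 1 library left out, where fewer libraries raise the smallest p that the exact permutation test can give. The labels do not say what a replicate number marks, so no pairing was used. Deviations of same-numbered libraries over all genes tested correlated at -0.603 to 0.568, both ends between TAC groups. The range was 0.0683 to 0.350 between IRS1KO and IRS2KO sham, 0.0248 to 0.250 between IRS2KO and WT sham and 0.0538 to 0.209 between WT TAC and sham. Every other pair of groups held a negative value. Between IRS1KO and IRS2KO 8 of 12 libraries correlated best with their own number in sham and 3 of 12 after TAC. Against WT it was 6 of 12 (IRS1KO) and 5 of 12 (IRS2KO) in sham, and 0 of 10 and 4 of 10 after TAC. Between TAC and sham it was 6 of 10 in WT, 6 of 12 in IRS1KO and 4 of 12 in IRS2KO. What same-numbered libraries share was not tested. With the replicate block 0 ratios passed (10 unadjusted), where 6 pairs allow no p below 0.0312 and 5 pairs none below 0.0625, so the design limits this count. The block leaves the log2 differences of the 8 ratios as they were, at adjusted p of 0.253 to 0.281 by exact permutation, and it changed no count of limma calls. Depth limits mt-Tn and mt-Tc.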
